A study of Drosophila melanogaster with 12 samples.

Results

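Whole flies that expressed Ub6-Stop were compared with control flies, 4 samples against 4, out of 12 samples in the series. Ub6 is a fusion of 6 ubiquitins in a row. The di-glycine ends of its inner units were removed, so that the enzymes that take ubiquitin chains apart do not split it. Ub6-Stop has no di-glycine at its own end either, and enzymes therefore do not attach it to other proteins. The transgene sat at the attP40 site, and flies carried 1 copy of it and 1 copy of the sqh-Gal4 driver, which follows the gene for the regulatory light chain of non-muscle myosin and is active in all tissues throughout life. Controls had the host background and sqh-Gal4 but no Ub6, and their labels also list attP40. The remaining 4 samples expressed Ub6-GG, the chain that keeps its terminal di-glycine, and their values are given only beside those of Ub6-Stop. Each sample was a pool of 10 flies, 1 day old, raised at 25 °C, and the sex of the flies is not given in the sources used here. Of the 16997 genes in the authors' deposited tables, the 11797 with a mean log2 CPM above 1 are described (CPM, read count scaled to library size).

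Names and text of the study disagree on which table holds this comparison. The assignment in the text was followed, which places Ub6-Stop in the table that is named for Ub6-GG. Of 37 genes in the published term lists for Ub6-Stop, 37 passed the thresholds in the table used here and 10 in the other, while of 26 genes listed for Ub6-GG, 10 passed in the table used here and 26 in the other. These counts do not regard direction. Ugt35b, CG17224, CG30016, CG13377 and vanin-like, published among the lower genes for Ub6-Stop, were higher here. The study also lists vanin-like among the higher genes for Ub6-Stop. CG6903, published among the higher genes for Ub6-GG, had a log2 fold change of -1.77 in the values used for Ub6-GG. If the names are right, every value given for Ub6-Stop belongs to Ub6-GG and the reverse.

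Ubiquitin is a small protein that cells join to other proteins, singly or as chains, and chains of some kinds send a protein to the proteasome. Free chains arise when a chain is removed whole or is built on no substrate, and they are normally cut back to single ubiquitins by deubiquitinases such as USP5. The chain studied here resembles such a free chain but resists that cleavage, although the authors had earlier found that the fly proteasome degrades it. The comparison thus asks what a non-conjugatable chain that resists deubiquitinases does to the transcripts of the fly.

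Values of single samples are not in the tables. A level below is therefore the mean CPM of a group, recovered from the mean log2 CPM and the fold changes, and the spread between the 4 replicates enters only through the authors' likelihood ratio, from which an approximate standard error (SE) was taken. Reads came from the 3′ end of transcripts, so that a level does not grow with gene length. On average 1 read corresponded to 0.594 CPM. Summed over all 11797 genes, the recovered levels were 938100 CPM in controls and 1060000 CPM in Ub6-Stop (1.13-fold). They are therefore not plain shares of a library.

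Ub6-Stop altered few transcripts. With the thresholds set at an FDR below 0.05 and a log2 fold change beyond 1 in either direction, 64 of the 11797 transcripts rose (0.543%) and 29 fell (0.246%), which is 93 in all (0.788%). The median log2 fold change of all 11797 was -0.05, and the central 90% lay between -0.96 and 1.07. With an unadjusted p below 0.05, 616 transcripts were higher (5.22%) and 401 were lower (3.4%). The altered transcripts had medians of 2.07 on the log2 scale among those that rose and -2.19 among those that fell, and 1.22 was the smallest absolute value. Both thresholds select for large changes, so these values do not measure how strong the response was. Among transcripts with a mean log2 CPM between 1 and 3, 0.461% were altered, and above 7 the share was 1.34%. The transcripts called lower were mostly of middle or high abundance, since 1 of 4125 transcripts between 1 and 3 fell, against 8 of 1044 above 7. The median SE was 0.65 between 1 and 3 and 0.37 above 7, so a change at a low level was less likely to pass.

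**Figure D1:**
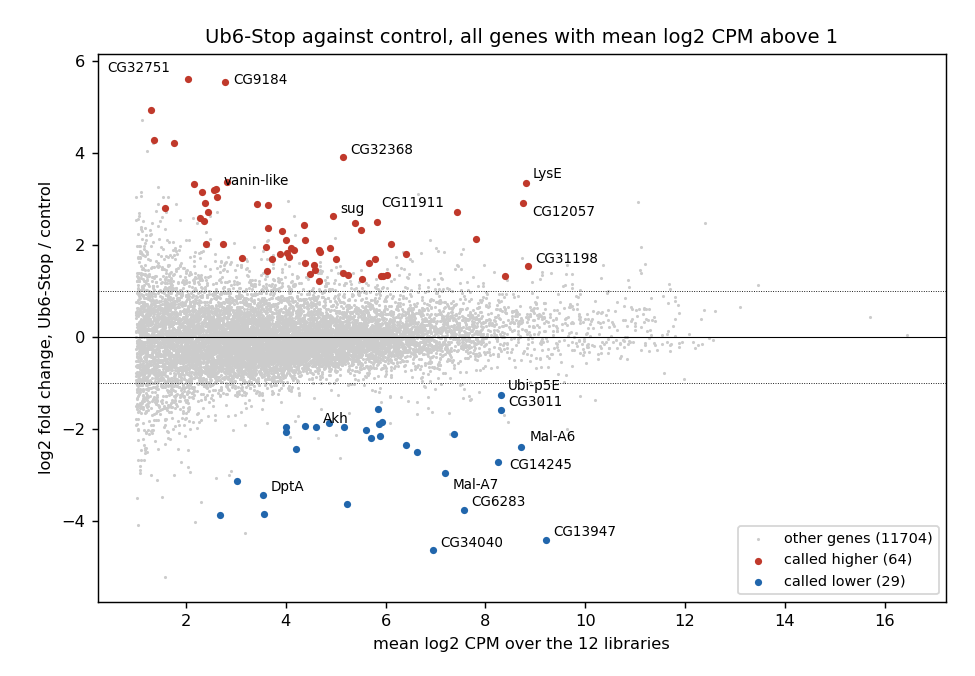
Log2 fold change of Ub6-Stop against control (vertical axis) by mean log2 CPM over the 12 libraries (horizontal axis) for 11797 genes, with the 64 called higher in red, the 29 called lower in blue and dotted lines at -1 and 1. The abundant genes that fell include CG13947 (-4.41) and Mal-A6 (-2.37), and the abundant genes that rose include LysE (3.35) and CG12057 (2.92).

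The most abundant altered transcript was CG13947, a gene to which no function is assigned here. It fell from 1544 CPM in controls to 72.6 CPM in Ub6-Stop, a log2 fold change of -4.41 (SE 0.79, FDR 6.8e-05), and its level in Ub6-GG was 170.0 CPM. CG34040 had the strongest fall among the altered transcripts, from 224.4 to 9.01 CPM (log2 fold change -4.63, SE 0.82), while in Ub6-GG it stood at 133.5 CPM. CG14245 fell from 562.2 to 85.9 CPM and CG10383 from 191.6 to 34.1 CPM. CG15263 fell from 24.5 to 1.64 CPM. Among the 10 most abundant altered transcripts were also LysE, CG12057, CG31198, Mal-A6, CG17841, Ubi-p5E, CG3011 and CG31343, which are taken up below.

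Genes of carbohydrate digestion were among those that fell. Maltases are enzymes, largely of the gut, that split maltose and related sugars into glucose. Mal-A6 fell from 550.0 to 106.0 CPM, a log2 fold change of -2.37 (SE 0.55, FDR 0.00685). Mal-A7 fell from 189.3 to 24.5 CPM (log2 fold change -2.95, SE 0.64, FDR 0.00271) and Mal-A1 from 180.9 to 41.8 CPM (-2.11, SE 0.54, FDR 0.0221). In Ub6-GG these 3 genes stood at 590.9, 222.2 and 272.5 CPM, close to or above the control level. Mal-A6 and Mal-A7 lie within 3 genes of each other and are paralogs, so reads may be shared between them.

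The rest of the maltase family had values on the same side. All 10 measured maltase genes had a log2 fold change below 0, with a median of -1.48 and a range from -2.95 to -0.24, and 5 of them had an unadjusted p below 0.05. Mal-A8 was the next closest to the thresholds, at 73.3 CPM in controls and 20.0 CPM in Ub6-Stop (FDR 0.0952). In Ub6-GG the median of the same 10 genes was 0.57. Amylases, which cut starch, gave values on the same side, with Amy-p at 793.2 CPM in controls and 451.9 CPM in Ub6-Stop (FDR 0.864) and Amy-d at 347.8 and 96.5 CPM (FDR 0.157). The maltase-like gene tobi, whose name stands for target of brain insulin, had 30.8 CPM in controls and 6.97 CPM in Ub6-Stop (FDR 0.185).

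The lysosomal alpha-mannosidases (LMan), which trim mannose from glycans, did not share this direction. The 6 measured had a median of 1.24 on the log2 scale, all above 0, and none passed the thresholds in the edgeR test, while 3 had an unadjusted p below 0.05. Over the whole list of 22 sugar hydrolases the median was -0.77, with 8 genes lower and 3 higher at an unadjusted p below 0.05 (36.4% and 13.6% of the list), and 3 passed the thresholds, all lower. Those 3 are also in the published term lists, so the count is no independent evidence of a direction.

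Lipases gave a mixed picture. CG6283, a predicted digestive lipase, fell from 306.1 to 22.7 CPM, a log2 fold change of -3.75 (SE 0.92, FDR 0.0148), with 240.0 CPM in Ub6-GG. Its relative CG6277 had 170.3 CPM in controls and 39.7 CPM in Ub6-Stop (FDR 0.18). The most abundant member of the list in Ub6-Stop, CG6295, had 248.3 and 572.9 CPM (FDR 0.633). Of the 17 measured lipases, 5 were lower and 2 higher at an unadjusted p below 0.05, and the median log2 fold change was -0.26. CG11425, a predicted lipid phosphate phosphatase, fell from 57.7 to 14.3 CPM, and it stood at 70.2 CPM in Ub6-GG.

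Enzymes of folate metabolism and of purine synthesis formed another set of lower transcripts. Folate carries single carbon units, taken largely from serine and glycine, which cells use to build purines. CG3011, which encodes serine hydroxymethyltransferase (Shmt) and loads carbon from serine onto folate, was the most abundant of the folate list. It fell from 403.0 to 134.9 CPM, a log2 fold change of -1.58 (SE 0.43, FDR 0.0424), with 413.3 CPM in Ub6-GG. The next steps are carried out by pug and Nmdmc, a cytosolic and a mitochondrial enzyme that interconvert folate-bound carbon units. Pug fell from 75.2 to 16.4 CPM (log2 fold change -2.19, SE 0.54, FDR 0.0174), and Nmdmc fell from 58.3 to 15.1 CPM (-1.95, SE 0.52, FDR 0.037). In Ub6-GG pug stood at 61.5 CPM and Nmdmc at 31.5 CPM.

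In purine synthesis, AdSL, or adenylosuccinate lyase, fell from 93.8 to 26.1 CPM (log2 fold change -1.84, SE 0.38, FDR 0.00126). The gene ade3, which encodes an enzyme of several early steps (Gart in current nomenclature), fell from 82.5 to 28.1 CPM (-1.55, SE 0.42, FDR 0.0396). Both stood at 59.3 CPM in Ub6-GG. Further enzymes of the path came close without passing: CG11089 had 231.9 CPM in controls and 74.3 CPM in Ub6-Stop (FDR 0.0782), and ade2 had 26.9 and 5.90 CPM (FDR 0.113). The most abundant gene of the list, ade5, had 652.5 and 864.9 CPM (FDR 0.982), so the list was not uniform. Of the 12 measured folate genes 3 passed the thresholds and of the 9 purine genes 2 did, all lower, with medians of -0.48 and -0.77. These 5 genes are in the published term lists as well, and their direction is not independent evidence.

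CG5955, which encodes threonine dehydrogenase (Tdh), fell from 30.4 to 5.57 CPM, a log2 fold change of -2.43 (SE 0.61, FDR 0.0201). Just outside the threshold lay Sardh, or sarcosine dehydrogenase, at 33.5 and 7.28 CPM (FDR 0.0564), and Spat, a serine-pyruvate aminotransferase, at 115.6 and 44.2 CPM (FDR 0.0572). Both were picked out because their FDR lay just above 0.05, as did hppy and U4-U6-60K (FDR 0.0564 each). Just inside the limit lay MtnD, a metallothionein that fell from 86.9 to 23.6 CPM (FDR 0.0439), as well as CG4562 and Takl1 (FDR 0.0466 each). CG1139, an amino acid transporter of the SLC36 family, fell from 125.0 to 24.4 CPM, with 103.0 CPM in Ub6-GG.

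**Figure D2:**
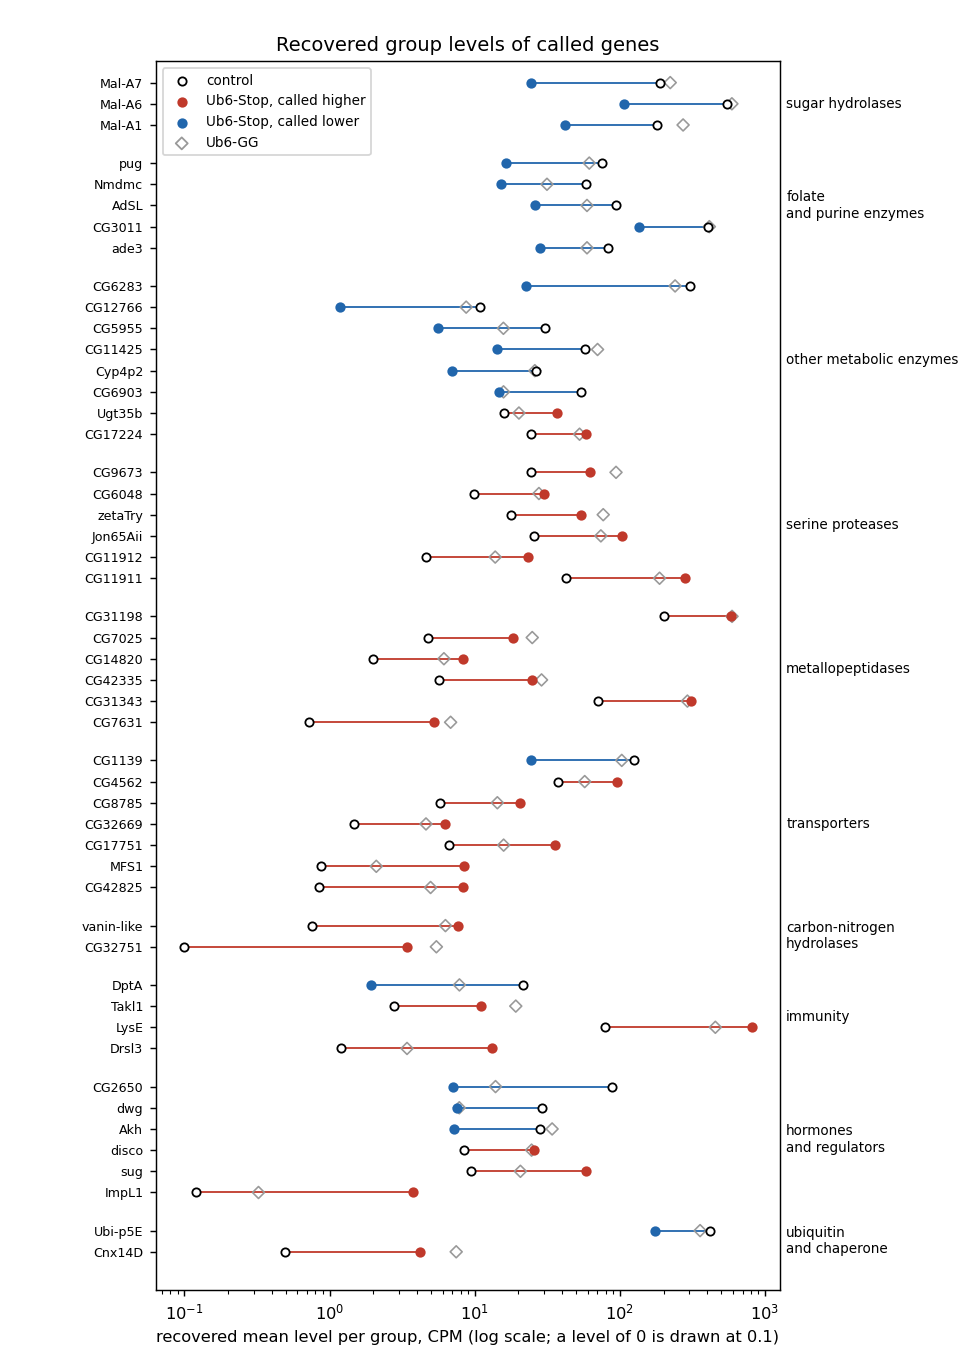
Recovered mean level in CPM (horizontal log axis) of 49 altered genes in control (open circles), Ub6-Stop (filled, red where higher and blue where lower) and Ub6-GG (grey diamonds), grouped by function, with lines joining control and Ub6-Stop, a level of 0 drawn at 0.1 CPM and no error shown. For Mal-A6 the Ub6-GG level (590.9 CPM) lies by the control level (550.0 CPM) and apart from Ub6-Stop (106.0 CPM), while for CG31198 the Ub6-GG level (592.2 CPM) lies by that of Ub6-Stop (585.6 CPM).

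Some of the other lower transcripts encode hormones and regulators. Akh encodes adipokinetic hormone, a peptide from the corpora cardiaca that mobilizes stored fat and sugar. It fell from 28.1 to 7.23 CPM, a log2 fold change of -1.95 (SE 0.46, FDR 0.0105), and had 34.1 CPM in Ub6-GG. It was the only one of 29 measured neuropeptide genes to pass the thresholds. CG2650, now named daywake (dyw), fell from 88.0 to 7.12 CPM and stood at 13.9 CPM in Ub6-GG. The gene dwg, which encodes a zinc finger transcription factor, fell from 29.3 to 7.51 CPM, and its Ub6-GG level of 7.83 CPM was almost the same. CG6903, which encodes the lysosomal acetyltransferase Hgsnat, fell from 54.0 to 14.7 CPM, with 15.8 CPM in Ub6-GG.

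Among detoxification enzymes, Cyp4p2 was the only one of 72 measured cytochrome P450 genes to pass, and it fell from 26.5 to 6.94 CPM (log2 fold change -1.92, SE 0.40, FDR 0.00106), with 25.9 CPM in Ub6-GG. At an unadjusted p below 0.05, 9 P450 genes were lower and 3 higher (12.5% and 4.17%), and the median of the family was -0.08, a sign that turned with the scaling on ribosomal protein genes (0.04). Cyp4g1, by far the most abundant P450 gene, had 1771 and 1784 CPM. CG12766, a predicted aldo-keto reductase, fell from 10.8 to 1.18 CPM. In the opposite direction, Ugt35b, a glycosyltransferase that conjugates small molecules to sugar, rose from 15.8 to 36.9 CPM (log2 fold change 1.22, SE 0.33, FDR 0.0424).

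Proteases were the largest functional class among the higher transcripts, in classes that were assigned after the values were seen. Serine proteases of the trypsin type digest dietary protein in the midgut. The most abundant of those altered was CG11911, which rose from 42.8 to 282.6 CPM, a log2 fold change of 2.72 (SE 0.66, FDR 0.0129), with 187.6 CPM in Ub6-GG. Its neighbor CG11912 rose from 4.65 to 23.2 CPM (log2 fold change 2.30, SE 0.44), and the genes lie within 3 genes of each other. Jon65Aii, of the Jonah family, rose from 25.5 to 103.5 CPM (2.02, SE 0.53), and zetaTry rose from 17.7 to 54.0 CPM (1.60, SE 0.39). CG9673 and CG6048 rose as well, with log2 fold changes of 1.33 and 1.58. For zetaTry and CG9673 the level in Ub6-GG was higher still, at 76.8 and 94.1 CPM. All 6 serine proteases that rose are in the published term lists, so their count is no independent evidence.

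Of the 28 measured genes of the named trypsin and Jonah families, 23 had a log2 fold change above 0, 10 were higher at an unadjusted p below 0.05 (35.7%) and 2 passed the thresholds, with a median of 0.77. Jon65Aiii had 910.1 CPM in controls and 3523 CPM in Ub6-Stop (log2 fold change 1.95, FDR 0.058). The most abundant of them, Jon99Ciii, had 2885 and 3801 CPM (FDR 1) and reached 8576 CPM in Ub6-GG. The median of the family in Ub6-GG was 1.48.

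Metallopeptidases trim peptides from their ends or cut them within, and 6 of 31 measured genes passed the thresholds, all higher. CG31198, an aminopeptidase, was the most abundant of these and rose from 200.3 to 585.6 CPM (log2 fold change 1.55, SE 0.41, FDR 0.0323), with 592.2 CPM in Ub6-GG. CG31343 rose from 70.3 to 307.9 CPM (2.13, SE 0.45) and CG42335 from 5.63 to 24.8 CPM (2.12, SE 0.46). These 3 aminopeptidase genes lie within 3 genes of one another and may share reads. The carboxypeptidases CG7025 and CG14820 rose from 4.75 to 18.3 CPM and from 1.99 to 8.32 CPM. CG7631, of the astacin family, rose from 0.727 to 5.21 CPM. The most abundant gene of the list, CG12374, had 486.6 and 1713 CPM (FDR 0.185). The median log2 fold change of the list was 0.96, and 15 of its genes were higher at an unadjusted p below 0.05 (48.4%) against 1 lower. Over all 11797 genes, 0.543% passed upward and 5.22% were higher at an unadjusted p below 0.05. All 6 that passed are in the published term lists, so their count is no independent evidence.

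Lysozymes, which break bacterial cell walls and act in the fly gut in digestion, showed the highest median of the function lists with more than 2 measured genes, 2.11 over 6 genes, all above 0. LysE rose from 79.3 to 808.2 CPM, a log2 fold change of 3.35 (SE 0.83, FDR 0.0173), with 454.5 CPM in Ub6-GG. LysD, the most abundant, had 1365 CPM in controls and 7642 CPM in Ub6-Stop (log2 fold change 2.48, SE 0.75, FDR 0.109), and LysB had 365.5 and 2804 CPM (FDR 0.111). Neither passed. LysB, LysD and LysE are close paralogs, and reads may be split among them.

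Immune genes went in different directions. DptA, or Diptericin A, an antimicrobial peptide induced through the immune deficiency pathway, fell from 21.6 to 1.94 CPM, a log2 fold change of -3.42 (SE 0.86, FDR 0.0194), and had 7.85 CPM in Ub6-GG. Drsl3, a relative of drosomycin, rose from 1.20 to 13.1 CPM (3.37, SE 0.73, FDR 0.00241), with 3.42 CPM in Ub6-GG. Takl1, a relative of the kinase Tak1, had 2.79 CPM in controls and 11.1 CPM in Ub6-Stop (1.97, SE 0.54, FDR 0.0466). In the study's quantitative PCR its direction in Ub6-Stop was the opposite, which the authors read as no overall change. CG11671, named Nazo in the RefSeq annotation, rose from 1.09 to 9.57 CPM. Drosomycin itself (Drs), the most abundant antimicrobial peptide gene, had 611.2 and 384.0 CPM (FDR 0.756). The 15 antimicrobial peptide genes had a median of -0.67 for Ub6-Stop (0.61 for Ub6-GG), with 4 lower and 1 higher at an unadjusted p below 0.05. For the 7 bomanin and related immune-induced peptides the median was 0.71, all above 0, and none passed, while 2 had an unadjusted p below 0.05. The most abundant of them, IM33, had 575.5 and 943.3 CPM (FDR 0.773).

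Transporters of several families were also among the higher transcripts. MFS1, a transporter of the major facilitator superfamily, rose from 0.873 to 8.40 CPM, a log2 fold change of 3.16 (SE 0.57, FDR 7.7e-05), with 2.10 CPM in Ub6-GG. CG17751, a predicted organic ion transporter, rose from 6.60 to 35.9 CPM (2.43, SE 0.46). CG4562, the ABC transporter Mrp5, was the most abundant of those that rose, and went from 37.6 to 96.0 CPM (1.35, SE 0.37). CG8785, CG32669 and CG42825, listed under transmembrane transport in the published terms, rose with log2 fold changes of 1.82, 2.03 and 3.19. Of 48 measured transporter genes, 6 rose and 1 fell (CG1139), and the median was 0.22. CG3168, the most abundant, had 932.1 and 603.1 CPM (FDR 0.871). The 6 that rose were put on the list because they are in the published terms, so the count does not describe transporters at large.

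Several of the strongest increases started from almost no reads in controls. CG32751, a predicted carbon-nitrogen hydrolase that lies beside vanin-like on the X chromosome, had no recovered read in controls and 3.41 CPM in Ub6-Stop (FDR 7.7e-05). Against a floor of 3 reads over the 4 control libraries taken at average size (0.445 CPM), it was at least 7.67-fold higher. Its neighbor vanin-like rose from 0.759 to 7.70 CPM (SE of the log2 fold change 0.70). The non-coding RNA CR42765 had no recovered control read either, and it was at least 4.68-fold higher in Ub6-Stop. CG9184 rose from about 2 reads over the control libraries to about 105, a ratio of 52.5 (95% counting interval 14.2 to 439.2), and ImpL1, an ecdysone-inducible gene, from about 1 to about 25 (ratio 25.0, interval 4.09 to 1026). CG43829 rose from about 2 to about 38 reads (ratio 19.0, interval 4.91 to 162.6). Their levels in Ub6-GG varied: CG32751 had 5.44 CPM and CR42765 1.70 CPM, close to Ub6-Stop, while CG9184 had 1.15, ImpL1 0.324 and CG43829 0.77 CPM. Of the 64 higher transcripts, 17 had 12 or fewer reads recovered over the control libraries together. Of the 29 that fell, 3 had so few reads in Ub6-Stop, among them CG32335 (meep), which fell from 8.19 to 0.495 CPM. These intervals and the floor cover counting error only.

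The lowest FDR belonged to CG32368, annotated as a long non-coding RNA, which rose from 3.64 to 55.8 CPM, a log2 fold change of 3.91 (SE 0.50, FDR 1.01e-10), with 43.0 CPM in Ub6-GG. CR44534, another non-coding RNA, rose from 0.483 to 5.50 CPM. CG10910 rose from 15.6 to 88.3 CPM (FDR 4.75e-08). CG12057 was among the most abundant, and it rose from 85.7 to 649.0 CPM (2.92, SE 0.63, FDR 0.0022), with 554.4 CPM in Ub6-GG. CG17841 rose from 171.7 to 431.5 CPM.

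Of the transcription factors, sug (sugarbabe), a zinc finger factor known for its response to dietary sugar, rose from 9.40 to 58.6 CPM, a log2 fold change of 2.63 (SE 0.44, FDR 1.39e-05). Its level in Ub6-GG was 20.6 CPM. Disco, another zinc finger factor, rose from 8.39 to 25.7 CPM and had 24.6 CPM in Ub6-GG. Further genes of known type that rose were Npc2d, of a family of sterol-binding proteins (2.44 to 18.3 CPM), Mur29B, a mucin-related gene (17.1 to 43.9 CPM), mwh, a regulator of wing hairs (8.94 to 33.5 CPM), and Pat1, a kinesin-related protein (31.6 to 79.7 CPM). Cnx14D, a calnexin, rose from about 3 to about 28 reads over 4 libraries (ratio 9.33, interval 2.88 to 48.0). The cuticle gene Cpr49Ag rose from 4.36 to 14.6 CPM and stood at 3.42 CPM in Ub6-GG.

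Of the ubiquitin genes and the lists of ubiquitin handling, 1 gene passed the thresholds. Ubi-p5E, 1 of the polyubiquitin genes of the fly, fell from 418.1 to 174.1 CPM, a log2 fold change of -1.26 (SE 0.34, FDR 0.0408), with 356.8 CPM in Ub6-GG. Another polyubiquitin gene, Ubi-p63E, had 32.4 and 28.6 CPM (FDR 1). All 5 measured ubiquitin genes were below 0, with a median of -0.18, and Ubi-p5E alone had an unadjusted p below 0.05. RpL40 and RpS27A, which encode ubiquitin fused to a ribosomal protein, had 1527 and 1413 CPM and 1511 and 1360 CPM (FDR 1 for both). None of 47 proteasome genes had an unadjusted p below 0.05, and their median was -0.05, a sign that turned when the median gene or the median ribosomal protein gene was set to 0. None of 24 deubiquitinase genes did either, with a median of -0.12 (0.01 with the ribosomal protein scaling), nor did any of 17 heat shock genes, with a median of -0.15. The most abundant of each, Rpn2 (323.0 and 362.1 CPM), Usp7 (222.8 and 249.8 CPM) and Hsc70-4 (797.1 and 661.7 CPM), had FDRs of 0.988 or more. Of 21 autophagy genes 1 was lower and 1 higher at an unadjusted p below 0.05, and none passed the thresholds, with Atg8a at 363.4 and 324.6 CPM (FDR 1).

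No entry of the tables names the Ub6 transgene, so its expression was not measured here. The driver's own gene sqh had 103.3 CPM in controls and 119.4 CPM in Ub6-Stop (FDR 1). The gene w, a version of which marks many fly transgenes, had 2.87 and 8.10 CPM (log2 fold change 1.47, p 0.00321, FDR 0.216). Msp300, which lies by the attP40 site, had 452.4 and 615.7 CPM (FDR 0.871).

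**Figure D3:**
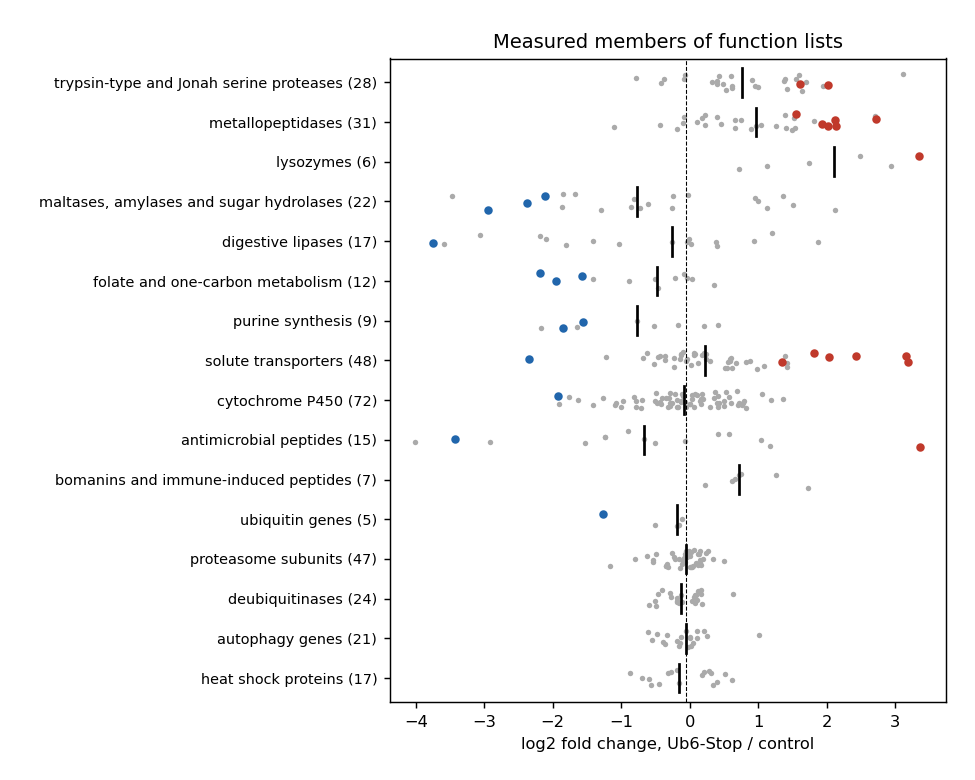
Log2 fold change of Ub6-Stop against control (horizontal axis) for each measured member of 16 function lists, with the number measured in parentheses, the list's median as a bar, members called higher in red and lower in blue, and the median of all 11797 genes (-0.05) as a dashed line. Lysozymes (median 2.11) lie to the right and sugar hydrolases (median -0.77) mostly to the left, while the 47 proteasome genes lie close to the dashed line.

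Markers of tissues were examined next, since the samples were whole flies. In such samples a change in RNA per cell and a change in the number of cells of a type cannot be told apart. Of 27 measured midgut markers, which include proteases and lysozymes named above, 9 were higher and 1 lower at an unadjusted p below 0.05 (33.3% and 3.7%), and the median was 0.62. LysE passed the thresholds upward and Mal-A1 downward, so the markers of this tissue did not move together. The median of the midgut markers in Ub6-GG was 1.28. Mex1, a midgut gene that encodes no digestive enzyme, had 9.78 and 21.6 CPM (FDR 0.454). Other markers of that kind included Npc1b (log2 fold change 1.42), Myo61F (0.67), GATAe (0.36) and Myo31DF (-0.14). Each of these had an unadjusted p above 0.05 in the edgeR test. Of 12 markers of the Malpighian tubule, the fly's renal organ, 3 were higher at an unadjusted p below 0.05, with a median of 0.75, and CG17751 alone passed. The most abundant tubule marker, Alp4, had 168.0 and 273.5 CPM (FDR 0.837). The part of a change in gut or tubule mass in the protease, lysozyme and maltase values was not tested.

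Fat body, the fly's liver-like tissue, had a median of 0.20 over 11 markers, of which Fbp1 is also on the larval list, with apolpp, which encodes the main lipid carrier of the blood, at 718.9 and 2149 CPM (FDR 0.226). Larval serum proteins are stored by the larval fat body and used up after the adult emerges. Their list, which also holds the fat body genes Fbp1 and Fbp2, had a median of -1.05, and all 6 were below 0. Lsp1beta, the most abundant, had 1432 and 554.7 CPM (FDR 0.781), and none had an unadjusted p below 0.05. All 22 muscle markers were above 0, with a median of 0.54 and a range from 0.12 to 1.35, and TpnC4 alone had an unadjusted p below 0.05. Mlc2, the most abundant, had 5014 and 7506 CPM (FDR 0.893). Markers of the eye (median -0.06 over 24 genes), of neurons (0.22 over 19) and of hemocytes (0.24 over 12) had none past the thresholds in the edgeR test, and 1, 0 and 1 of them had an unadjusted p below 0.05. Their most abundant members were Arr2 (1282 and 1015 CPM), Sh (161.0 and 204.5 CPM) and crq (117.9 and 115.6 CPM), each with an FDR above 0.9. The sign of the eye markers turned with the ribosomal protein scaling (0.07).

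Lists of sex-specific tissues held no gene that passed the thresholds. Of 49 seminal fluid genes, labeled accessory gland in the plot though not all belong to that gland, 46 were above 0, with a median of 0.79. At an unadjusted p below 0.05, 23 of them were higher (46.9%). EbpII, the most abundant in Ub6-Stop, had 1006 and 2371 CPM (FDR 0.22), and Dup99B, the most abundant in controls, had 1456 and 2283 CPM. Of 36 testis genes 32 were below 0, with a median of -0.40, and the 1 gene with an unadjusted p below 0.05, nht, was higher. Mst84Db, the most abundant of them, had 572.0 and 564.7 CPM (FDR 1). The 3 yolk protein genes, expressed by females, had a median of 1.02, with Yp1 at 980.8 and 2085 CPM (FDR 0.713), and 28 ovary genes had a median of -0.10 (0.02 with the ribosomal protein scaling), with Cp15 at 1762 and 1977 CPM. In the yolk and ovary lists 0 genes had an unadjusted p below 0.05. The 6 genes of the spermatheca, the sperm store of females, had a median of 0.45, and 1 of them, CG32834 at 8.43 and 17.6 CPM, was higher at an unadjusted p below 0.05. Seminal fluid genes of males and yolk genes of females were thus both on the higher side. How the pools were composed by sex is not given in the sources used here, and the part of that composition in these values was not tested.

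**Figure D4:**
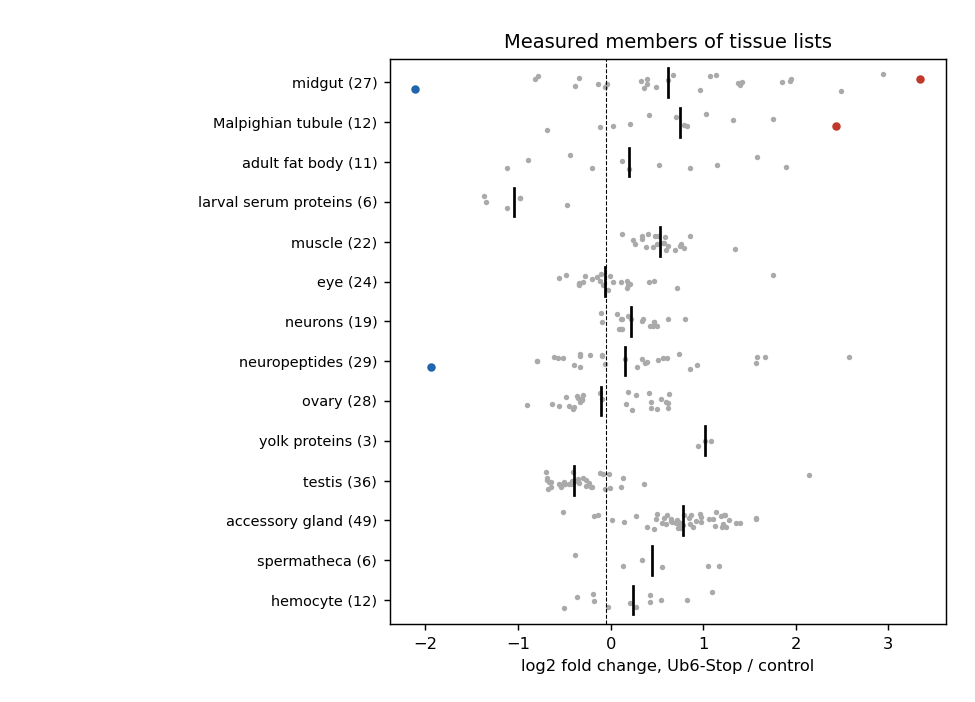
Log2 fold change of Ub6-Stop against control (horizontal axis) for each measured marker of 14 tissues or cell types, with the number measured in parentheses, the median as a bar, called markers in red (higher) or blue (lower) and the median of all 11797 genes (-0.05) dashed. Seminal fluid genes (labeled accessory gland, median 0.79) and muscle markers (0.54) lie mostly to the right. The 6 genes of the larval serum protein list (-1.05) lie to the left.

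The altered genes were spread over the genome. All 93 were placed in release 6 of the annotation, and 15 of them lay within 3 genes of another, in 7 groups. In 6 groups all genes went one way: CG11911 with CG11912, CG9568 with CG13102, the 3 aminopeptidases and CG32751 with vanin-like were higher, and Mal-A6 with Mal-A7 and CG34040 with CG4363 were lower. In the other group mwh rose and CG32335 fell. By chromosome arm, the altered share lay between 0.579% on 2L and 1.14% on X, and none of 84 measured genes on chromosome 4 was called by the edgeR test, where 10 had an unadjusted p below 0.05.

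Ub6-GG and Ub6-Stop were each compared with the same 4 control libraries, so their fold changes are not independent, and the difference between them was not tested here. The 29 transcripts that fell in Ub6-Stop had a median log2 fold change of -2.19 there and -0.48 in Ub6-GG. For the 64 that rose the medians were 2.07 and 1.56. These transcripts were chosen by their change in Ub6-Stop, which favors the larger value there.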

How the data were processed

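RNA of whole flies (10 per sample, 1 day old) was made into 3′ libraries from 250 ng with a poly(A)-primed kit. The authors sequenced 50 bp reads (CASAVA 1.8.2), aligned them to dm3 with STAR, tabulated reads per gene and compared groups in edgeR. The authors deposited 2 tables with a log2 fold change and mean log2 CPM, a likelihood ratio (a score of the fit), a p-value and an FDR per gene. They hold 0 columns of values per sample, so this comparison was taken as deposited. The deposited p-value matches the chi-square tail of the score (within 0.364%), and the FDR the Benjamini-Hochberg adjustment over 16997 genes (within 0.38%). Per-sample depth is not known, and whether replicates came from separate crosses is not given, so p-values measure the spread between these samples. The published RNA integrity of the samples varied within and between groups, and it was not taken into account here.

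For the SE, the size of a log2 fold change was divided by the root of its likelihood ratio. Group levels were solved from the mean log2 CPM and both fold changes, with prior counts of 2 and 0.125 reads. The 2186 genes with no read give the value of 1 read and an average library of 1684000 reads. The recovery was tested on simulated data (median error 0.532% over 11449 genes).

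Genes named were the 12 highest and 12 lowest fold changes, the 10 most abundant altered genes, altered list members and the most abundant member of each list described (by the level in the higher of both groups). Other genes, and the function classes in the plot of levels, were chosen after their values were seen. Members and lists were chosen with earlier results of these data known, and 4 genes that symbol patterns had caught wrongly (Pebp1 and the Mst57D genes) were later taken out. Symbols matched RefSeq release 6 for 16861 genes. Python 3.11.15 was used.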

Additional observations from a re-analysis of the deposited data

How the results depend on the processing

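No paired analysis was possible because the tables carry no values per sample, and for the same reason fits without single replicates were not made. Against 64 higher and 29 lower transcripts, Bonferroni adjustment gave 17 and 6, an FDR limit of 0.01 gave 28 and 14, an absolute log2 fold change above 2 gave 35 and 19, and a mean log2 CPM above 5 gave 21 and 19. An FDR limit of 0.10 gave 88 and 46, and an unadjusted p below 0.05, with the same fold limit, gave 464 and 296. Benjamini-Hochberg adjustment over only the 11797 described genes gave 73 and 39, so some genes just outside the limit depend on this choice. With the tables assigned by name there were 65 higher and 21 lower transcripts, and 8 of the 93 altered genes took the opposite sign: Mal-A7 (0.23), Mal-A6 (0.10), Mal-A1 (0.59), CG14075 (0.48), CG11425 (0.28), Akh (0.28), CG3011 (0.037) and Cpr49Ag (-0.34). Of the others, 26 passed the thresholds in that table and 59 did not. Setting the median gene to 0 shifted fold changes by 0.05 and setting the median ribosomal protein gene to 0 by 0.13. Neither shift brought any of the 93 genes under the fold limit. The deposited FDRs were kept because the test could not be rerun, so whether genes near the FDR limit would still pass is not known. Of 32 list medians, 1 and 6 changed sign under these shifts, all within 0.13 of 0, and 8 did when the tables were assigned by name. Prior counts of 0 and 0.5 moved the median control level of altered genes from 13.3 CPM to 13.3 and 13.2 CPM. Errors were larger at low expression: for genes with a mean log2 CPM between 1 and 3 the median SE was 0.65, against 0.34 between 5 and 7. The planned search for promoter motifs was not run, since no promoter sequences were used here.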

Other observations

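Lists of energy metabolism, not described above, had values to one side without any gene passing the thresholds. All 11 measured genes of oxidative phosphorylation were above 0, with a median of 0.40 on the log2 scale and none with an unadjusted p below 0.05, and their most abundant gene, ATPsynC, had 4359 CPM in controls and 6604 CPM in Ub6-Stop. Of 14 glycolysis genes 13 were above 0, with a median of 0.28, and aldolase (Ald) had 6849 and 10810 CPM. The medians in Ub6-GG were 0.17 and 0.08.

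Nplp2, the most abundant neuropeptide gene in Ub6-Stop, had 1167 CPM in controls and 3495 CPM in Ub6-Stop (edgeR FDR 0.0786), and Nplp3 had the highest control level among these genes, 1868 CPM. The mucin-related gene Mur18B had 457.3 and 142.6 CPM (FDR 0.0577), opposite in direction to Mur29B, which rose. The Turandot stress genes were of low level, with TotA at 10.6 and 15.6 CPM and TotC at 2.56 and 13.1 CPM (FDR 0.195). 1 further gene, CG10591, passed the thresholds but lay below the limit on mean log2 CPM.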
